A study of Homo sapiens with 2 samples.

Results

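The cluster of miR-424, miR-503, miR-542 and miR-450 is a group of 6 microRNA hairpins on the X chromosome. Its members are the rows of the deposited count table whose name is hsa-miR-424, hsa-miR-503, hsa-miR-542, hsa-miR-450a or hsa-miR-450b, with or without a copy number and an arm (5p or 3p, the 5′ and 3′ strands of the hairpin). This rule used names alone and found 11 of the 2904 rows, none of them a joined row. The samples were BEAS-2B cells, an immortalised wild-type line of human bronchial epithelium, given vehicle (control) or manganese and collected at 24 h. Each of the 2 groups was 1 library, and the manganese dose is not stated in these sources. The control library held 1064179 counts and the manganese library 1091070. With 1 library per group there was no replicate check and no test, so every difference below is between 2 libraries, and every 95% interval covers counting error alone.

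MicroRNAs are short RNAs cut from hairpin precursors, and each pairs with messenger RNAs mainly through its seed, bases 2 to 8, to lower their translation and stability. The arms miR-424-5p and miR-503-5p are relatives of miR-15 and miR-16, a family known for restraining cell division by targeting G1 cyclins and CDC25A. The mouse counterpart of miR-424 is called miR-322, and it and miR-503 are known to be induced when myoblasts leave the cell cycle. The long non-coding RNA gene MIR503HG, at the same locus, is known to respond to transforming growth factor beta. The arm miR-542-3p is reported to target the mRNA of the apoptosis inhibitor survivin.

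The 6 hairpins lie on the minus strand of chromosome X within 6527 nt of GRCh38, the build also called hg38, by the GENCODE 29 annotation. MIR424, at 134546614 to 134546711, is the first in the direction of transcription, and 19 of its 98 nt overlap the 5′ end of MIR503HG (134543337 to 134546632). MIR503, at 134546328 to 134546398, follows 215 nt later in an intron of 3 of the 5 annotated MIR503HG transcripts. A gap of 4890 nt separates it from MIR542 at 134541341 to 134541437, which begins 1900 nt past the annotated 3′ end of MIR503HG. MIR450A2 (134540508 to 134540607), MIR450A1 (134540341 to 134540431) and MIR450B (134540185 to 134540262) close the cluster, with 76 and 78 nt between neighbours, and they too lie outside MIR503HG.

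**Figure D1:**
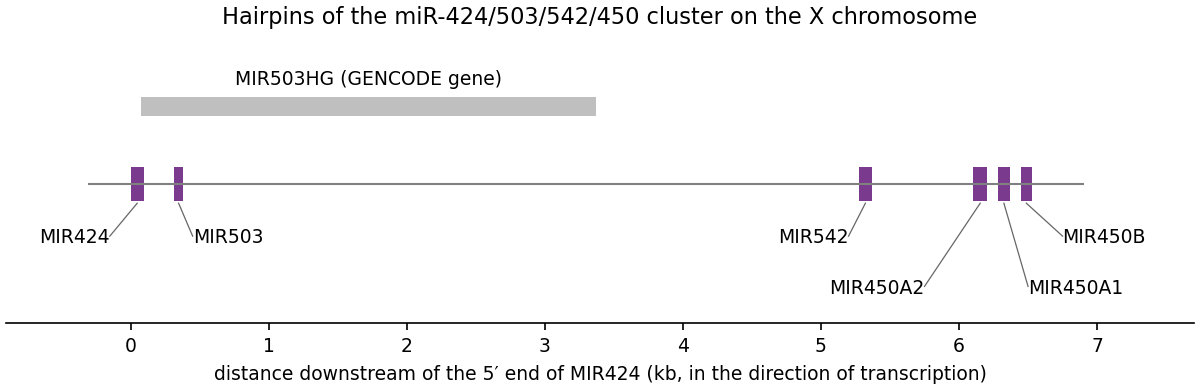
Map of the 6 hairpins (purple boxes) and of the MIR503HG gene (grey bar), with the distance downstream of the 5′ end of MIR424 in kb on the horizontal axis. MIR424 and MIR503 sit at the start of the cluster, and MIR542 and the 3 miR-450 hairpins lie beyond the end of MIR503HG after a gap of 4890 nt.

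Mature sequences were available from RefSeq (GRCh38.p14) for 10 of the 11 members, all but miR-542-3p. They are shown because close relatives in the cluster differ by single bases in their seeds, which are in capitals, and the seed largely sets which messages an arm can pair with.
hsa-miR-424-5p: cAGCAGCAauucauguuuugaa
hsa-miR-503-5p: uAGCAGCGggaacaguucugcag
hsa-miR-424-3p: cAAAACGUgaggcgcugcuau
hsa-miR-542-5p: uCGGGGAUcaucaugucacgaga
hsa-miR-450a-5p: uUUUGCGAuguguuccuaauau
hsa-miR-450b-5p: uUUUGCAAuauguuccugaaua
hsa-miR-450a-1-3p: aUUGGGAAcauuuugcauguau
hsa-miR-450a-2-3p: aUUGGGGAcauuuugcauucau

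No seed occurred in more than 1 member among these 10 arms. Counted from 1 at the 5′ end, the seeds of miR-424-5p and miR-503-5p differ only by A8G, while the full arms match at 12 of 22 positions. The arms miR-450a-5p and miR-450b-5p match at 16 of 22 positions, with G7A as the difference inside the seed. The 3p arms of the 2 miR-450a copies match at 19 of 22 positions and differ inside the seed by A7G, so the copies can be told apart by this arm. Their 5p arm is the same sequence, and counts of miR-450a-5p belong to either copy.

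The hairpins of miR-424 and miR-503 are shown because they hold most of the cluster's counts. The 3p arm of miR-424 and the 5p arm of miR-503 had the larger share. Capitals mark the 5p arm and then the 3p arm.
MIR424: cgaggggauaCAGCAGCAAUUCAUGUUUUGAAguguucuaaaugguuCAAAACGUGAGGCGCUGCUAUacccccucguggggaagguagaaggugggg
MIR503: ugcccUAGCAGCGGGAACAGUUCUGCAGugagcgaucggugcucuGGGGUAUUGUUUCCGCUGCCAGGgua

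The cluster was a small share of the microRNA pool and somewhat lower in the manganese library. Its 11 rows summed to 1439 control and 1139 manganese counts, or 0.135% (exact binomial interval 0.128 to 0.142) and 0.104% (0.0984 to 0.111) of the library. Those library totals include miR-486-5p, with 9597 control and 174822 manganese counts. Counts were scaled with TMM factors, which set library totals so that most entries centre near equality, and are given as CPM, counts per 1000000 of the scaled total. The scaled level was 1326 CPM in the control against 1065 CPM with manganese, a fold of 0.803 (0.742 to 0.869), manganese over control. With totals that omitted the 5 most abundant entries, the fold was 0.913 (0.844 to 0.988). In a bulk library, fewer cells that make a microRNA and less of it per cell cannot be told apart.

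Of the 11 members, 8 had at least 20 counts over both libraries and were called measured, miR-503-3p and miR-450a-1-3p had fewer, and miR-450b-3p had 0 counts. By a rule of size, at least 2-fold with an interval that excludes 1-fold, 0 of the 8 were higher and 1, miR-542-3p, was lower with manganese. The same rule called 12.9% of all 403 measured entries higher and 6.45% lower, so a single lower call among 8 members is not a result about the cluster. The 8 members had a median log2 fold of −0.29 (range −1.11 to 0.26), against −0.08 over all measured entries. Of the 8, 7 had folds below 1, as did 222 of the 403, and only 4 of the 8 had intervals below 1. The 265 other entries with 31 to 1030 counts, the range of the measured members, had a median of −0.08 with quartiles of −0.45 and 0.46, and 38 were higher and 19 lower by the rule.

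**Figure D2:**
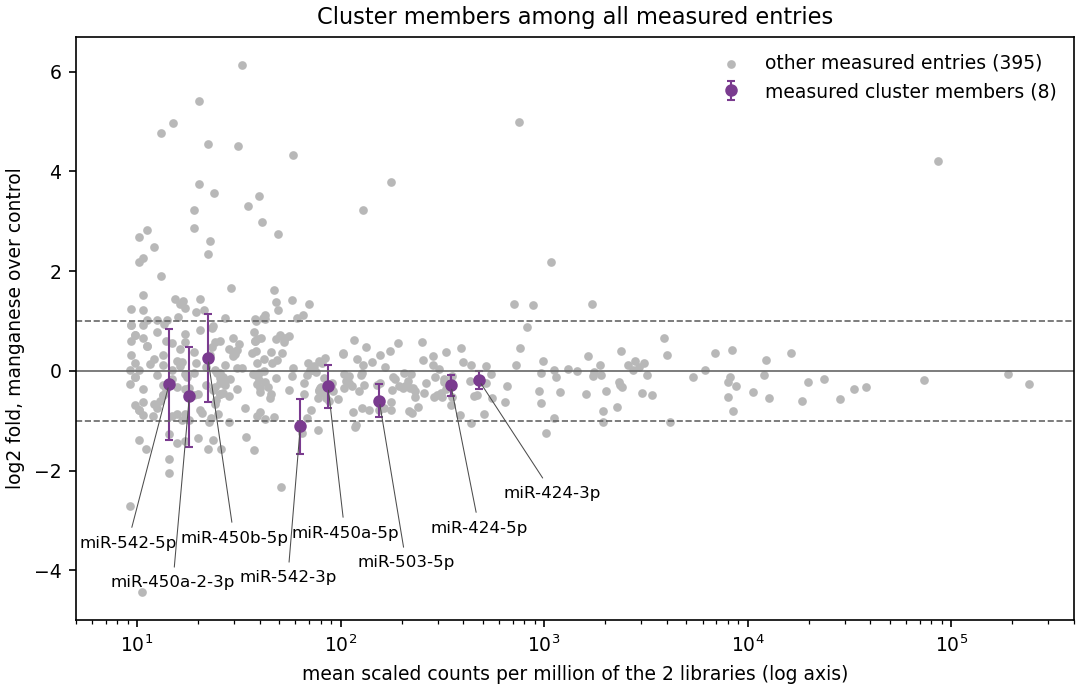
The horizontal axis gives the mean scaled CPM of the 2 libraries on a log axis and the vertical axis the log2 fold, manganese over control; purple points are the 8 measured members with exact 95% counting intervals and grey points the other 395 measured entries. Dashed lines mark 2-fold: miR-542-3p alone among the members lies past the lower line, at −1.11, and miR-450b-5p alone lies above 0, at 0.26.

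Hairpin miR-424 gave the most counts, and its 3p arm had more of them than the 5p arm that carries the miR-15/16 seed. The arm miR-424-3p was counted 552 times in the control and 478 times with manganese, or 509 and 447 CPM, a fold of 0.879 (0.776 to 0.995). The arm miR-424-5p had 415 and 336 counts, or 382 and 314 CPM, a fold of 0.821 (0.709 to 0.951). Both arms were slightly lower with manganese, and the hairpin as a whole had 967 and 814 counts, a fold of 0.854 (0.777 to 0.938). For this hairpin the interval depended on scaling: if library totals omitted the 5 most abundant entries, its fold was 0.971 (0.884 to 1.07). The arms were then at 0.999 (0.882 to 1.13) for miR-424-3p and 0.934 (0.807 to 1.08) for miR-424-5p.

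The neighbouring miR-503 was the next most abundant. Its 5p arm had 202 and 132 counts, or 186 and 123 CPM, 1.51-fold lower with manganese (1.21 to 1.89), short of the 2-fold rule. Its 3p arm had 8 and 2 counts, too few to be measured. Although miR-503-5p and miR-424-5p come from hairpins 215 nt apart and have near-identical seeds, their folds were not separable. The ratio of the fold of miR-503-5p to that of miR-424-5p was 0.807 (0.615 to 1.06), which does not depend on library scaling.

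Among the more distant hairpins, miR-542 showed the largest difference of the measured members. The arm miR-542-3p was counted 94 times in the control but 43 times with manganese, or 86.6 and 40.2 CPM, 2.15-fold lower (1.49 to 3.17). It ranked 21 from the lowest among the 403 folds. Its partner miR-542-5p had 17 and 14 counts, or 15.7 and 13.1 CPM, a fold of 0.835 with a wide interval of 0.381 to 1.80. The 2 arms together had 111 and 57 counts, 1.92-fold lower (1.38 to 2.69). The rule of size no longer called miR-542-3p with totals that omitted the 5 most abundant entries, where its fold was 0.528 (0.359 to 0.765), or with an interval bound of 2-fold as the rule.

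The miR-450 hairpins gave few counts. The arm miR-450a-5p, made from both copies, had 104 and 83 counts, or 95.8 and 77.6 CPM, a fold of 0.810 (0.599 to 1.09). The copy-specific arm miR-450a-2-3p had 23 and 16 counts, a fold of 0.706 (0.348 to 1.40), and miR-450a-1-3p had 2 and 9. The fold interval of that last arm, 0.945 to 43.4, also included 1. Set against each other, the 3p counts of copy 1 over copy 2 were 6.47 times higher in the manganese library, with an interval of 1.09 to 66.9 that rests on 2 control counts. The arm miR-450b-5p had 22 and 26 counts, or 20.3 and 24.3 CPM, a fold of 1.20 (0.653 to 2.22). For miR-450b-3p, 0 counts allow up to 3 counts, equal to 2.76 CPM in the control library and 2.80 CPM in the manganese library.

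**Figure D3:**
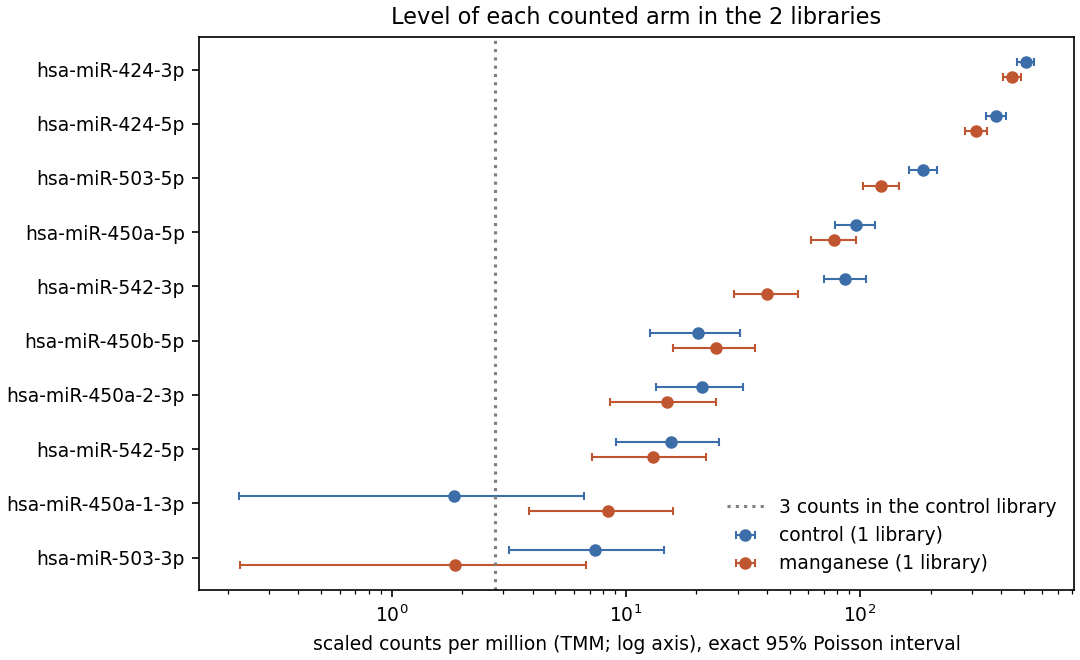
Scaled CPM on a log axis for the 10 arms with counts, in the control (blue) and manganese (orange) libraries, with exact 95% Poisson intervals; the dotted line marks 3 counts in the control library, 2.76 CPM. The intervals of the 2 libraries are apart for miR-503-5p and miR-542-3p, and miR-503-3p and miR-450a-1-3p each have a library below the dotted line.

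The order of levels was the same in both libraries for the 5 most abundant arms: miR-424-3p, miR-424-5p, miR-503-5p, miR-450a-5p and miR-542-3p. Counts of different arms also carry differences in how well each sequence is captured and mapped, so this is an order of counts. In the control, miR-450a-5p and miR-542-3p did not differ beyond counting error (104 against 94 counts, ratio 1.11, 0.829 to 1.48). With manganese they did, at 83 against 43 counts (ratio 1.93, 1.32 to 2.86). The step from miR-424-3p to miR-424-5p exceeded counting error in both libraries, with ratios of 1.33 (1.17 to 1.51) and 1.42 (1.23 to 1.64). The step down from miR-542-3p exceeded counting error in the control, to miR-450a-2-3p (94 against 23 counts, ratio 4.09, 2.57 to 6.76). With manganese it led to a different arm, miR-450b-5p, and did not (43 against 26 counts, ratio 1.65, 0.993 to 2.80). The steps on either side of miR-542-3p were not compared between libraries. Lower neighbours in the order did not differ beyond counting error in either library.

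Because the hairpins are neighbours on 1 strand, their counts were also compared within each library, where scaling cancels. The first pair, miR-424 and miR-503, took 81.8% of the cluster's control counts and 83.2% of its manganese counts, and the 4 downstream hairpins the rest. The ratio of the downstream to the upstream fold was 0.905 (0.733 to 1.12), so the blocks on either side of the gap could not be separated at this depth. Each measured arm was then set against the sum of the other members. The ratio excluded 1 for miR-542-3p alone, at 0.561 (0.379 to 0.822), and its share of the cluster was 6.53% of control counts (5.31 to 7.93) against 3.78% of manganese counts (2.75 to 5.05). For the other 7 the interval included 1, with the lowest ratio 0.803 for miR-503-5p (0.630 to 1.02) and the highest for miR-450b-5p, with an interval of 0.815 to 2.80. In all, 13 such ratios were computed, with no adjustment of their intervals for that number, and without miR-542-3p the summed fold of the cluster was 0.827 (0.763 to 0.896).

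Which arm had more counts depended on the hairpin, and it was the same arm in both libraries. The 2 arms of a hairpin are different sequences, so these shares also carry differences in capture and mapping. The 5p arm made up 42.9% of miR-424 counts in the control (39.8 to 46.1) and 41.3% with manganese (37.9 to 44.7), so the 3p arm prevailed in each. For miR-542 the 3p arm prevailed more strongly, with 5p shares of 15.3% (9.18 to 23.4) and 24.6% (14.1 to 37.8). The other hairpins gave mainly the 5p arm, at 96.2% (92.6 to 98.3) and 98.5% (94.7 to 99.8) for miR-503 and 80.6% (72.7 to 87.0) and 76.9% (67.8 to 84.4) for both miR-450a copies together. All counts of miR-450b were 5p, 22 of 22 in the control and 26 of 26 with manganese, with exact lower bounds of 84.6% and 86.8% for the 5p share. The odds of 5p over 3p, manganese over control, were 0.935 (0.770 to 1.13) for miR-424 and 1.80 (0.745 to 4.27) for miR-542. They were 2.61 (0.509 to 25.6) for miR-503 and 0.798 (0.407 to 1.57) for miR-450a, and all 4 intervals include 1. Summed over the cluster, the 5p arms had 760 and 591 counts, a fold of 0.789 (0.707 to 0.880), and the 3p arms 679 and 548, a fold of 0.819 (0.730 to 0.918).

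**Figure D4:**
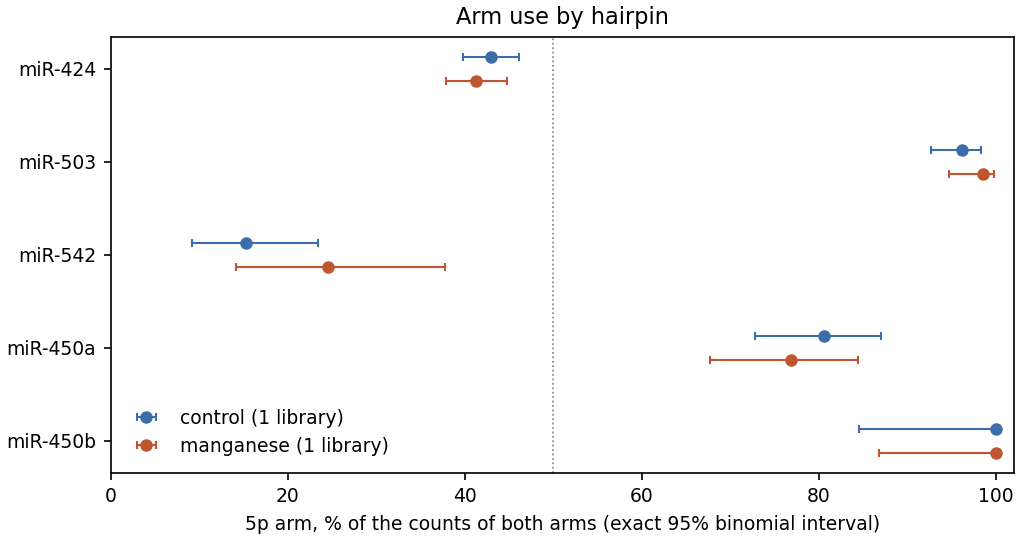
Share of the 5p arm among the counts of both arms of each hairpin, in percent, in the control (blue) and manganese (orange) libraries, with exact 95% binomial intervals; the dotted line marks equal arms. The miR-424 and miR-542 points lie below the line and those of miR-503, miR-450a and miR-450b above it, and the intervals of the 2 libraries overlap for every hairpin.

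The seed of miR-424-5p is the one printed above in capitals, and 6 entries with counts carry it. Most of those counts were miR-16-5p, with 26968 in the control and 23907 with manganese, a fold of 0.899 (0.884 to 0.915). Entries with this seed had 31428 and 28355 counts in all, and miR-424-5p was 1.32% (1.20 to 1.45) and 1.18% (1.06 to 1.32) of them. Of the 6 miR-15/16 relatives listed beside the cluster, 5 were measured, 0 passed the rule in either direction, and the median log2 fold was −0.15 (range −0.75 to 0.16). With 3170 control and 3491 manganese counts, miR-15b-5p had a fold of 1.12 (1.06 to 1.17). For miR-15a-5p the 714 and 486 counts were 1.45-fold lower (1.29 to 1.63). The arm miR-195-5p had 115 and 108 counts (a fold of 0.953, 0.726 to 1.25). At the low end of the range, miR-497-5p had 46 and 27 (a fold of 0.595, 0.356 to 0.978), and miR-6838-5p had 0. The seeds of the other 8 arms with a sequence and counts matched no other of the 2370 mature names in the RefSeq table. The seed of miR-450b-3p is shared with miR-769-3p, whose 42 and 49 counts were all the counts of that seed.

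Other X-linked entries also had mostly folds below 1. Outside the cluster, 38 measured entries had hairpins on chromosome X alone, and 28 of the 38 had folds below 1, as did 222 of all 403. By the rule 1 of the 38 was higher and 4 were lower, beside 12.9% and 6.45% of all 403. These few calls are not a result about the chromosome. The median log2 fold of the 38 was −0.28 (range −2.04 to 3.58), beside −0.29 for the cluster members and −0.08 for all measured entries. The 4 with the most counts were miR-221-3p (36676 and 24381, 1.48-fold lower, 1.46 to 1.51), miR-98-5p (4297 and 3033, 1.40-fold lower, 1.33 to 1.46), miR-222-3p (3779 and 2730, 1.36-fold lower, 1.30 to 1.43) and miR-224-5p (395 and 361, a fold of 0.927, 0.802 to 1.07). The higher entry was the leukocyte marker miR-223-3p, with 4 and 47 counts. Nearest to miR-424-3p in level over the 2 libraries were miR-335-3p with 608 and 508 counts, let-7d-3p with 501 and 429, and miR-15b-3p with 592 and 419, at log2 distances of 0.16, 0.21 and 0.22.

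Markers of other cells differed far more between these libraries than the cluster did. Of 12 red blood cell and leukocyte markers, 7 were measured and all 7 were higher with manganese, beside 12.9% of all measured entries. Only miR-486-5p and miR-451a (50 and 1564 counts) had 20 counts in the control alone. The others, miR-4732-5p, miR-4732-3p, miR-150-5p, miR-223-3p and miR-142-5p, passed the filter through the manganese library, which largely set their calls. The 12 markers summed to 8910 CPM in the control against 165152 CPM with manganese, mostly miR-486-5p with 9597 and 174822 counts. In the control 5 of the 12 were at 0 (both arms of miR-144, miR-486-3p, miR-223-5p and miR-4732-5p), and with manganese only miR-223-5p was. All 5 measured of 13 mesenchymal, endothelial and muscle markers were higher as well, at 1052 and 2930 CPM in sum. Most of that sum was miR-10b-5p, with 1049 and 2631 counts, beside miR-143-3p with 26 and 354. In both libraries 6 of the 13 were at 0, among them miR-143-5p, miR-214-3p and miR-206. The remaining pair had too few counts to be measured and was not higher: miR-126-5p had 11 and 8, and miR-145-5p had 2 in each library. Among the 5 that were higher, miR-126-3p (19 and 39 counts) and miR-1-3p (10 and 25) had fewer than 20 counts in the control. The 6 epithelial markers were at 103 and 209 CPM in sum, and 3 of them were measured in this epithelial line. Of these 3, miR-200b-3p (32 and 74 counts) and miR-429 (29 and 60) were higher by the rule, and miR-200a-3p (45 and 70) was not called. The other 3 had too few counts to be measured: miR-200c-3p (3 and 7), miR-141-3p (0 and 2) and miR-205-5p (3 and 11). With the red blood cell and leukocyte markers left out of the totals, the summed fold of the cluster was 0.913 (0.844 to 0.987) and that of miR-542-3p 0.528 (0.359 to 0.765). The within-library ratios of cluster members use no total. Any further part of these markers in the cluster's values was not tested.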

How the data were processed

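The deposited table held whole-number counts per mature microRNA entry, with 1 column per library, matched to the libraries by column name. The unit was read from the values. The submitters' processing notes name hg38, and no source used here names the aligner, counter, microRNA annotation or filters. Molecular identifiers are not mentioned, so intervals and floors describe counting error only.

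TMM factors came from edgeR 4.0.16 in R 4.3.3 (1.02 for the control, 0.981 for manganese). A fold is the ratio of scaled counts, with a 95% interval that is exact (Clopper-Pearson) and conditional on the sum of both counts. Arm and member ratios within libraries are odds ratios with exact conditional intervals (scipy 1.17.1, Python 3.11.15). The floor for a count of 0 was 3 counts. The call rule and intervals were run on simulated Poisson counts with no variation between libraries. The intervals assume that same setting, so this run checked the code and not the calls in these data. Sequences came from a RefSeq table, which matched 807 of the 965 entries with counts, and positions from GENCODE 29. X-linked entries were found by hairpin name, and 377 of the 378 measured hsa- entries outside the cluster had a hairpin.

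Named microRNAs were all members, the 3 entries nearest to the most abundant member, and at most 4 of each list by counts. The exception was the miR-15/16 list, of which all 6 relatives were named. Members and lists were chosen with earlier results of these data known. Singly named markers, miR-497-5p and miR-769-3p were picked with their values in view. The alternatives were 3 further scalings (total counts, DESeq2 1.42.0 size factors, totals without the 5 most abundant entries), 2 count filters, 2 call rules, an assumed variation of 20% between libraries, and a pseudocount of 1.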

Additional observations from a re-analysis of the deposited data

How the results depend on the processing

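The cluster's summed fold stayed below 1 under each alternative run: it was 0.913 with the 5 most abundant entries left out of the totals, also 0.913 with the red blood cell and leukocyte markers left out, and between 0.756 and 0.827 otherwise. The markers and miR-542-3p were left out only after the data were seen. Of 65 alternative values for the arms and hairpins, 0 changed sides of 1-fold. However, 4 left the main interval, all for miR-424-3p or its hairpin, and 2 took miR-542-3p short of 2-fold. These came from the totals without the 5 most abundant entries or without the markers, where miR-424-3p reached 0.999. Scaling by total counts or DESeq2 size factors lowered every fold, so it could not bring folds below 1 across it. The count of lower members, 1 in the main rule, was 0 without the 5 most abundant entries, 0 without the markers, 0 when the interval bound had to reach 2-fold, and 2 at 1.5-fold, where miR-503-5p joined. The count of higher members was 0 throughout. Over all entries, 15 were lower in place of 26 under either of those totals. Without a filter the higher entries numbered 82 rather than 52, and a filter of 100 counts left 17 higher and 10 lower, since other numbers of entries enter. The 2-fold bound gave 26 higher and 4 lower, and the 1.5-fold rule 57 lower. The totals without the 5 most abundant entries or without the markers moved the median log2 fold over measured entries from −0.08 to 0.10. Other causes were not tested. Arm shares were limited by depth: both arms were measured for miR-424, miR-542 and the summed miR-450a copies, but not for miR-503 or miR-450b. Restricting to the former leaves each odds ratio as it was by construction.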
